A study of Mus musculus with 8 samples.

Results

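Mpo, Elane, Prtn3, Ctsg, Ms4a3, Fcgr3, Fcer1g, Lyz2, Ltf and S100a8 are genes of myeloid granules and effector functions, and they were followed here by library in acute myeloid leukaemia (AML) cells. They were chosen by name as genes of granule enzymes, Fc receptors and maturation, and all 10 were found among the 54838 genes of the count table. The cells carried the RUNX1-RUNX1T1 fusion, also known as AML1-ETO, on a C57BL/6 background, and had been transplanted into Ptprca recipient mice. The 4 Vehicle samples came from recipients given vehicle. The 4 AG636 samples came from recipients given AG636, an inhibitor of the pyrimidine synthesis enzyme DHODH, at 100 mg/kg b.i.d. by oral gavage. Treatment lasted 1 day according to the legend for this model. The labels describe sub-lethal irradiation of the recipients, whereas the methods mention preconditioning for the other models alone.

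Neutrophils and monocytes store proteases and antimicrobial proteins in granules that are made in sequence as the cells mature. Primary granule proteins such as myeloperoxidase and neutrophil elastase are transcribed in early granulocyte-monocyte progenitors, secondary granule proteins such as lactoferrin later, and the S100a8 and S100a9 proteins accumulate in mature cells. Transcription factors of the C/EBP, RUNX and ETS families act on many of these genes. RUNX1-RUNX1T1 joins the DNA-binding part of RUNX1 to a co-repressor, and leukaemias that carry it have a partial block of myeloid maturation.

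The sources describe the sort of these cells in different ways, as cKit-high, as cKit+ CD11b- or, in the general methods, as cKit-high CD11b-low, and a gate on CD11b, a protein of mature myeloid cells, would limit what the maturation genes could show. Kit, which encodes cKit, had 1022 to 1580 counts in the 8 libraries, and Itgam, which encodes CD11b, had at most 4. Cebpa, the C/EBP factor that commits progenitors to granulocytes, had 0 counts in every Vehicle library and 1 count in each of AG636 samples 2 and 4. Hdc and Ms4a2, genes best known from mast cells and basophils, were abundant, with 3625 to 9992 and 3385 to 6729 counts, and Car1, an erythroid gene, had 15955 to 25961. Ptprc, the CD45 gene, had 13 to 64 counts. The labels name both bone marrow and spleen without giving the tissue of each sample, so tissue cannot be told apart from other differences between libraries. Fewer mice than samples per group are named in the legend, so samples may share a mouse and the p-values then measure in part a technical spread.

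The QuantSeq kit used counts transcripts from their 3′ ends, and a count depends little on the length of the gene. The libraries held 6120030 to 7162036 counts. Levels are given as CPM, counts scaled to the library size after TMM adjustment, and on this scale 1 count equals 0.145 to 0.160 CPM and 3 counts, the limit that a count of 0 allows, equal 0.434 to 0.479 CPM. No pair of replicates agreed within sampling noise, with a chi-square per degree of freedom of 3.90 to 13.2 among Vehicle libraries and 14.1 to 25.1 among AG636 libraries. The 3 highest Vehicle values, from 9.31 to 13.2, were those of Vehicle sample 4 with each of the others. Counting intervals are 95% Poisson intervals and cover counting error alone.

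The granule genes were few among the transcripts of these cells. All members together took 0.00578 to 0.0159% of the counts of a library. These are bulk samples, in which fewer cells that express a gene cannot be told apart from less RNA per cell. Ranked by mean CPM over the 8 libraries among 23416 genes with any count, Fcgr3 stood at 4616 and S100a8 at 4933. The others followed with Lyz2 at 9200, Ms4a3 at 9523, Mpo at 10046, Ltf at 10139, Prtn3 at 10180, Fcer1g at 10692, Elane at 10943 and Ctsg at 11073. The ranges of neighbouring genes in this order overlapped over the libraries.

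The upstream sequences of 5 members that varied together between libraries, chosen after their values were seen, are shown because the transcription factors named above bind such regions. They are the bases before the RefSeq start of each gene (build GRCm38.p6), up to the first base of any exon that the count table gives for the gene, written 5′ to 3′ on the strand of the gene. The stretch of Prtn3 lies inside the span of the gene in that table, which holds a longer transcript. Capitals mark matches on either strand to TGTGGT (a RUNX site), GAGGAA (an ETS site) and TTNNGNAA (a C/EBP site).
Mpo, chr11:87793534-87793580, + strand: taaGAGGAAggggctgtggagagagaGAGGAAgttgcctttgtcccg
Elane, chr10:79886062-79886246, + strand: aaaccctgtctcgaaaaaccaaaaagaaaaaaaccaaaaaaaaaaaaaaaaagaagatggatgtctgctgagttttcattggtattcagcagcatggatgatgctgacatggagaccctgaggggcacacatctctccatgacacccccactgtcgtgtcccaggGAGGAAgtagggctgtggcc
Prtn3, chr10:79879417-79879613, + strand: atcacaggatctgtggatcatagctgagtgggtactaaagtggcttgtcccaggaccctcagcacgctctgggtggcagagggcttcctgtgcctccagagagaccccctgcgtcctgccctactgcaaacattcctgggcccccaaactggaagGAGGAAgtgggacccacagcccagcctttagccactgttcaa
Ctsg, chr14:56102575-56102824, - strand: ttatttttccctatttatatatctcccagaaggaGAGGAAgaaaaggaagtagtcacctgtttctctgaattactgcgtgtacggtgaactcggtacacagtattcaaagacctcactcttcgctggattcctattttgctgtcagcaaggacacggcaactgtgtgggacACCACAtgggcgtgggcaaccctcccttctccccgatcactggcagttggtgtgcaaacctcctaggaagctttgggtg
S100a8, chr3:90668821-90668977, + strand: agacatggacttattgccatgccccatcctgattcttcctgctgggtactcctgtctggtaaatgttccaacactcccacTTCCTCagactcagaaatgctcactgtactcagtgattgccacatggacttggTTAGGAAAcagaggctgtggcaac
Each stretch holds GAGGAA, and Lyz2, a member with the same order of AG636 libraries that is not shown, has none in its window. The 5 stretches also held 1 TGTGGT, in Ctsg (as ACCACA), and 1 TTNNGNAA, in S100a8. In the full windows of 250 bases before the RefSeq start, 7 of the 10 members had GAGGAA (Mpo, Elane, Prtn3, Ctsg, Fcgr3, Ltf and S100a8), which 23.3% of 32851 promoters of this length hold. TGTGGT was in the windows of 2 members, Ctsg and Lyz2, against 14.0% of promoters, and TTNNGNAA in those of 5, Ms4a3, Fcgr3, Lyz2, Ltf and S100a8, against 36.8%. These matches describe letters in the windows and do not show binding.

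To ask whether 1 day of AG636 shifted the granule genes as a group, the groups were compared by limma-voom across all genes. Of 54838 genes, 10911 passed the filter on low counts, among them 8 of the 10 members. Elane and Ctsg did not pass it. Of the 8 tested members 1, Fcer1g, rose in AG636 and none fell, while 14% of all genes tested were called, 5.47% higher and 8.49% lower. Fcer1g was also the only tested member whose groups did not overlap, against 22.2% of all genes tested. At an unadjusted p under 0.05 limma-voom again called Fcer1g alone of the members, against 30.7% of all genes, and edgeR and DESeq2 called the same single member at an adjusted p under 0.05, against 14.8% and 18%. The median log2 fold change of the 8 members was −0.17, beside −0.0056 over all genes tested, and 4 had positive and 4 negative values. The median absolute log2 fold change was 0.44 for the members and 0.23 for all genes, and for 6 of the 8 members the SE was larger than the difference itself.

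**Figure D1:**
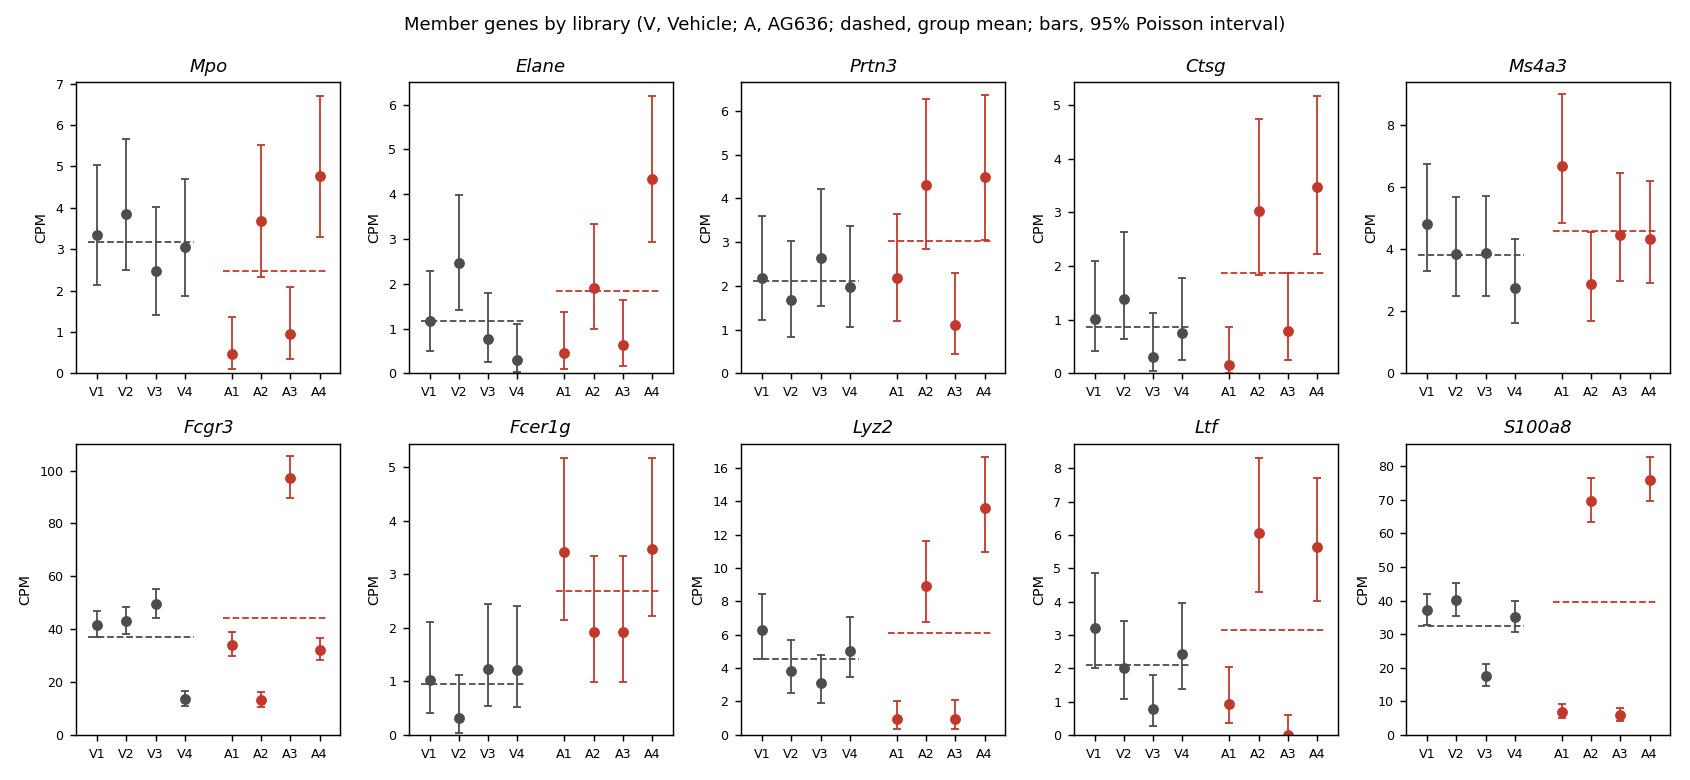
CPM of each member gene in the 4 Vehicle (V1 to V4, grey) and 4 AG636 (A1 to A4, red) libraries, with 95% Poisson intervals as bars and group means as dashed lines; each panel has its own scale. AG636 samples 2 and 4 lie above AG636 samples 1 and 3 for Mpo, Elane, Prtn3, Ctsg, Lyz2, Ltf and S100a8, and only Fcer1g has groups that do not overlap.

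Mpo encodes myeloperoxidase, the haem enzyme of primary granules that makes hypochlorous acid (ENSMUSG00000009350, chromosome 11, 87793581 to 87804413, + strand, GRCm38). Its level was 3.35, 3.84, 2.48 and 3.04 CPM in Vehicle samples 1 to 4 and 0.467, 3.67, 0.957 and 4.77 CPM in AG636 samples 1 to 4, from 16 to 25 and from 3 to 33 counts. The 4 Vehicle libraries were close together, whereas AG636 sample 4 was above all of them and AG636 samples 1 and 3 were below all of them. The means were 3.18 ± 0.572 and 2.47 ± 2.08 CPM (SD, n = 4), with −0.83 as the log2 fold change (SE 0.57, adjusted p = 0.360 by limma). It was −0.35 by edgeR and −0.34 by DESeq2, −0.25 without AG636 sample 1 and −1.32 without AG636 sample 4.

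Elane and Prtn3 encode neutrophil elastase and proteinase 3, serine proteases of primary granules, and lie 3.1 kb apart on chromosome 10 (Elane, ENSMUSG00000020125, 79886247 to 79888215; Prtn3, ENSMUSG00000057729, 79874476 to 79883174; both + strand). Elane had 8, 16, 5 and 2 counts in the Vehicle and 3, 12, 4 and 30 in the AG636 libraries, or 1.18 ± 0.925 and 1.84 ± 1.79 CPM. The groups overlapped fully at these counts, with the lowest value in Vehicle sample 4 and the highest in AG636 sample 4 (two-sided exact permutation p = 0.629, of which the smallest possible value with 4 against 4 is 0.0286). Prtn3 was at 2.19, 1.69, 2.63 and 1.98 CPM in Vehicle and at 2.18, 4.31, 1.12 and 4.48 CPM in AG636. AG636 samples 2 and 4 exceeded every Vehicle library and AG636 sample 3 was below all of them. Its log2 fold change was 0.33 (SE 0.44, adjusted p = 0.650 by limma), and 0.084 without AG636 sample 4 to 0.72 without AG636 sample 3. Plppr3, which overlaps Prtn3 on the opposite strand, had 5 counts in all.

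Ctsg encodes cathepsin G, a further serine protease of primary granules, in a cluster with mast cell protease genes (ENSMUSG00000040314, chromosome 14, 56099881 to 56102574, − strand). It had 7, 9, 2 and 5 counts in the Vehicle and 1, 19, 5 and 24 in the AG636 libraries, or 0.868 ± 0.452 and 1.86 ± 1.63 CPM (exact permutation p = 0.543). AG636 samples 2 and 4 were again above the Vehicle range and AG636 sample 1 below it. Cma1, the mast cell chymase gene 155.2 kb away, had 545, 553, 664 and 147 counts in Vehicle and 161, 248, 1737 and 566 in AG636. Its highest library was AG636 sample 3, where Ctsg had 5 counts, so these neighbours were ordered differently across the libraries. In a fit with no filter on low counts Elane had 0.45 as the log2 fold change (adjusted p = 0.744 by limma) and Ctsg had 0.53 (0.729).

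Ms4a3 encodes a membrane protein of granulocyte-monocyte progenitors that is used as a lineage marker of them (ENSMUSG00000024681, chromosome 19, 11629496 to 11640851, − strand). Its level was 4.81, 3.84, 3.87 and 2.74 CPM in Vehicle and 6.69, 2.87, 4.47 and 4.34 CPM in AG636. These values overlapped, with AG636 sample 1 highest and Vehicle sample 4 lowest. The log2 fold change was 0.23 (SE 0.30, adjusted p = 0.645 by limma), and 0.030 without AG636 sample 1 to 0.42 without AG636 sample 2. Ms4a2, the Fc epsilon receptor beta chain gene 5.8 kb away, stood far higher in every library, at 851 ± 66.1 CPM in Vehicle and 874 ± 232 CPM in AG636.

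Fcgr3 encodes an activating low-affinity receptor for IgG (ENSMUSG00000059498, chromosome 1, 171051174 to 171064935, − strand), and FcgR staining is part of how granulocyte-monocyte progenitors and leukaemia stem cells are gated. It was at 41.7, 43.03, 49.5 and 13.5 CPM in Vehicle samples 1 to 4 and at 34.1, 13.1, 97.3 and 32.2 CPM in AG636 samples 1 to 4. Vehicle sample 4 and AG636 sample 2 were lowest and AG636 sample 3 was highest, with counting intervals (89.8 to 105 CPM for AG636 sample 3 and 10.4 to 16.2 CPM for AG636 sample 2) that lay far apart. The group means were 36.9 ± 16.0 and 44.2 ± 36.7 CPM, with 0.05 as the log2 fold change (SE 0.55, adjusted p = 0.961 by limma). With Vehicle sample 4 left out the value was −0.36, with AG636 sample 3 left out −0.43, and with both left out −0.84 (adjusted p 0.0795 at its lowest over all alternatives), so its sign rested on those libraries. Mir6546, annotated within Fcgr3 on the same strand, had 1 count in all.

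Fcer1g encodes the common gamma chain, the ITAM adaptor that Fc gamma III, Fc epsilon I and other activating receptors need for surface expression and signalling (ENSMUSG00000058715, chromosome 1, 171229572 to 171234365, − strand, 164.6 kb from Fcgr3). It had 7, 2, 8 and 8 counts in Vehicle samples 1 to 4 and 22, 12, 12 and 24 counts in AG636 samples 1 to 4, or 1.02, 0.307, 1.24 and 1.22 against 3.42, 1.92, 1.91 and 3.47 CPM. Every AG636 library was above every Vehicle library, although the counting interval of each AG636 library overlapped that of Vehicle sample 3 (0.534 to 2.44 CPM), the lowest limits being 2.14, 0.990, 0.989 and 2.22 CPM in AG636 samples 1 to 4. The means were 0.946 ± 0.437 and 2.68 ± 0.884 CPM, with 1.53 as the log2 fold change (SE 0.45, adjusted p = 0.0465 by limma, edgeR 0.0382, DESeq2 0.0268). The exact permutation p was 0.0286, the smallest that 4 against 4 can give.

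The Fcer1g call stood close to the threshold. It was lost in 7 of the 8 fits that left out 1 library, with adjusted p-values of 0.0985, 0.123, 0.0904 and 0.0719 without Vehicle samples 1 to 4 and of 0.101, 0.0501 and 0.0830 without AG636 samples 1, 2 and 4, and was kept without AG636 sample 3 (0.0382). It was also lost with no filter on low counts (0.0862), and a filter of at least 10 counts in every sample removed the gene. The log2 fold change stayed between 1.12 and 1.85 in the fits that tested it, and was 1.85 without both Vehicle sample 4 and AG636 sample 3 (adjusted p = 0.0451).

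Lymphoid markers are given beside Fcer1g, and their summed levels, unlike Fcer1g, overlapped between the groups. The summed level of 11 B cell markers was 20.3 to 47.6 CPM in Vehicle and 120, 50.1, 34.8 and 105 CPM in AG636 samples 1 to 4, so that AG636 samples 1 and 4 were highest for these markers and for Fcer1g. All 8 B cell markers tested had positive log2 fold changes, and 1 passed the test, Cd79a, a B cell receptor subunit, which rose from 2, 2, 5 and 7 counts in Vehicle to 11, 13, 10 and 22 in AG636 (log2 fold change 1.83, SE 0.47, adjusted p = 0.0266 by limma). The 12 T and NK cell markers summed to 7.43 to 12.9 CPM in Vehicle and 11.6 to 29.2 CPM in AG636, and of the 3 tested Il7r rose (1.46, SE 0.41, adjusted p = 0.0376), while Cd3e, Cd8a and Cd4 were at 0 in at least 1 library. Both calls were lost with no filter on low counts (adjusted p = 0.0519 for Cd79a and 0.0733 for Il7r). Leaving out 1 library ended the Cd79a call without Vehicle sample 1 (0.0921), 2 (0.0905) or 3 (0.0655), and the Il7r call without any of the Vehicle samples (0.103, 0.106, 0.107 and 0.0609) or AG636 sample 1 (0.0849) or 4 (0.0672). The 10 macrophage markers summed to 4.46 to 10.6 and 7.02 to 19.0 CPM with neither of 2 tested called, and Adgre1 and Marco had at most 4 and 2 counts. The part of these markers in the Fcer1g difference was not tested.

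**Figure D2:**
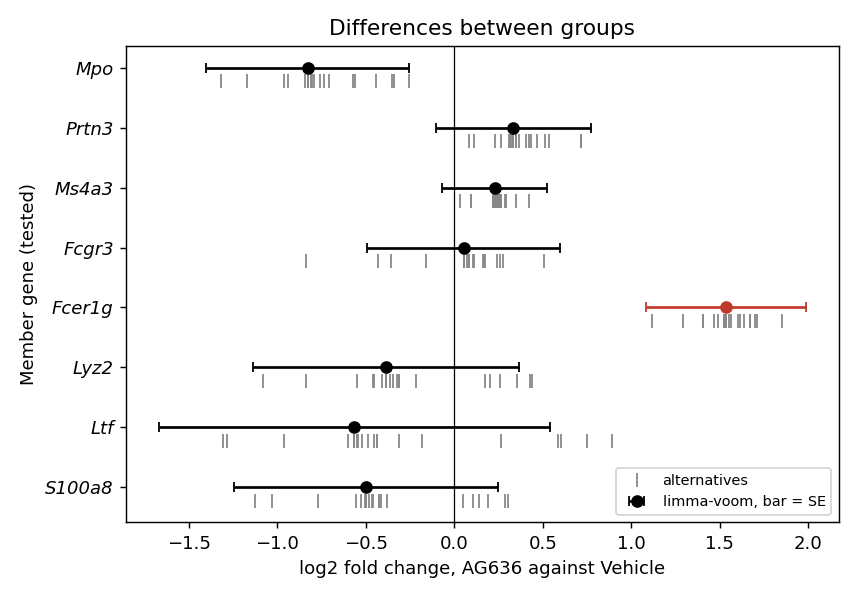
Log2 fold change of AG636 against Vehicle for the 8 members tested, with the SE as a bar (limma-voom, 4 libraries per group; Fcer1g, the member called, in red) and the values under the alternative settings as ticks below each point. The ticks of Lyz2, Ltf, S100a8 and Fcgr3 fall on both sides of 0, and those of Fcer1g stay above 1.

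Lyz2 encodes lysozyme M, an antibacterial enzyme of granulocytes and macrophages (ENSMUSG00000069516, chromosome 10, 117277331 to 117282321, − strand). Its level was 6.26, 3.84, 3.09 and 5.02 CPM in Vehicle and 0.933, 8.94, 0.957 and 13.6 CPM in AG636. AG636 samples 2 and 4 were above and AG636 samples 1 and 3 below every Vehicle library. The log2 fold change was −0.38 (SE 0.75, adjusted p = 0.769 by limma), and it was 0.43 by edgeR. Lyz1, its near-identical copy 5.5 kb away, was listed at 0 in every library, and how the counting divided reads between them is not stated, so the Lyz2 counts are uncertain to that extent.

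Ltf encodes lactoferrin, the iron-binding protein of secondary granules (ENSMUSG00000032496, chromosome 9, 111019271 to 111042767, + strand). It had 22, 13, 5 and 16 counts in Vehicle and 6, 38, 0 and 39 counts in AG636, or 2.10 ± 1.02 and 3.16 ± 3.14 CPM. AG636 samples 2 and 4 exceeded every Vehicle library, and the 0 of AG636 sample 3 allows a level of up to 0.479 CPM by the limit of 3 counts and of up to 0.589 CPM by the two-sided counting interval. The log2 fold change was −0.56 (SE 1.11, adjusted p = 0.770 by limma), and it was 0.58 by edgeR.

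S100a8 encodes a calcium-binding protein that forms calprotectin with S100a9 and is among the most abundant proteins of neutrophils (ENSMUSG00000056054, chromosome 3, 90668978 to 90670035, + strand). It was at 37.2, 40.1, 17.6 and 35.1 CPM in Vehicle and at 6.84, 69.8, 5.90 and 76.03 CPM in AG636. The AG636 libraries fell on either side of the Vehicle libraries with none among them, and the highest was 12.9-fold above the lowest. The group means were nonetheless near each other, at 32.5 ± 10.1 and 39.6 ± 38.5 CPM, with −0.50 as the log2 fold change (SE 0.74, adjusted p = 0.693 by limma) and 0.29 by edgeR. S100a9, 22.6 kb away, had 261, 264, 115 and 176 counts in Vehicle and 28, 362, 54 and 489 in AG636, so that the ratio of S100a8 to S100a9 counts stayed between 0.685 and 1.57 while each gene varied over 10-fold between AG636 libraries.

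The spread between libraries was wide for most members, above all in AG636. The SD of log2 CPM was larger in AG636 than in Vehicle for 9 of the 10 members, all but Fcer1g, as it was for 70.7% of all genes tested. Its median over the members was 1.25 in AG636 and 0.58 in Vehicle, and over all genes tested 0.23 and 0.16. S100a8, Ltf and Lyz2 had the widest spreads, and Ltf and Lyz2 had SDs of 2.09 and 1.85 in AG636 and of 0.73 and 0.41 in Vehicle. No test was made of these spreads.

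Low counts widen an SD of log values, so the spread was also compared with counting. The index of dispersion, the variance over the mean of counts at equal depth, is about 1 when libraries differ by counting alone. In Vehicle it was 0.669 for Mpo, 0.479 for Prtn3, 1.26 for Ms4a3, 1.31 for Fcer1g and 1.53 for Ctsg, near what counting gives, 2.82 for Lyz2, 3.26 for Ltf and 4.75 for Elane, above it, and 45.3 for Fcgr3 and 20.5 for S100a8. In AG636 it was 11.6 for Mpo, 11.7 for Elane, 5.79 for Prtn3 and 9.35 for Ctsg, and it was 42.4 for Lyz2, 20.03 for Ltf, 192 for Fcgr3 and 243 for S100a8. Ms4a3 and Fcer1g had the lowest values of the members in AG636, at 3.43 and 1.89. That of Ms4a3 was also above what counting gives. The index is not given for other genes. As stated above, no pair of replicates agreed within sampling noise, so an excess over counting does not set the members apart.

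**Figure D3:**
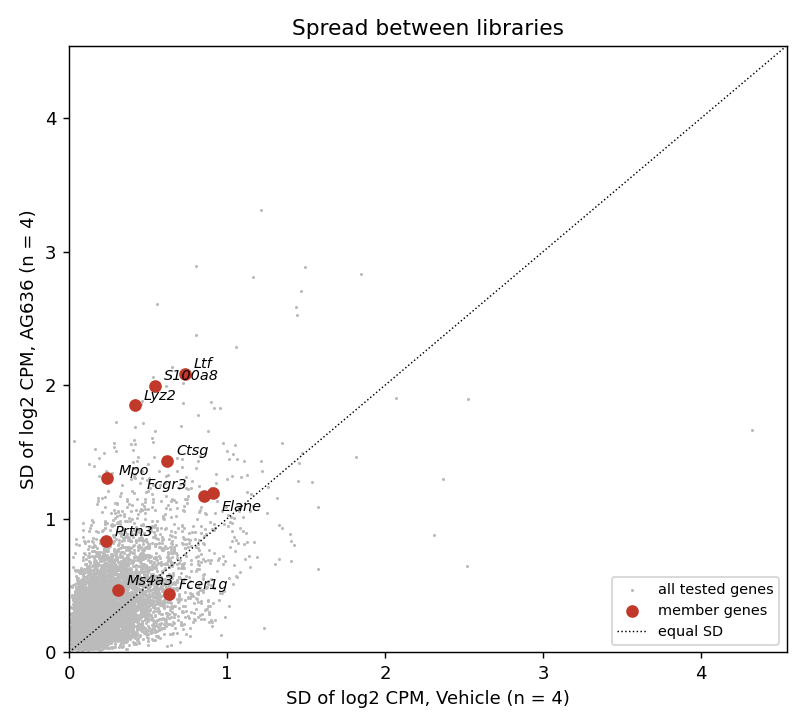
SD of log2 CPM over the 4 AG636 libraries (vertical) against that over the 4 Vehicle libraries (horizontal), with each tested gene as a grey point, the members in red and equality as a dotted line. Of the members 9 lie above the line and Fcer1g below it, and Ltf, S100a8 and Lyz2 are highest in AG636.

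The members are described by 2 orders, 1 among the AG636 libraries alone and 1, that of Fcgr3, over all 8 libraries. Ms4a3 and Fcer1g followed neither. In Mpo, Elane, Prtn3, Ctsg, Lyz2, Ltf and S100a8, AG636 samples 2 and 4 were above AG636 samples 1 and 3. This order among AG636 libraries was noticed in the data, and the values are given as a description. The share of all genes tested with this order was not computed, so the number of members with it is no result about them. The stricter order, with AG636 samples 2 and 4 the highest and 1 and 3 the lowest of all 8 libraries, held for Lyz2 and S100a8, and for 0.339% of all genes tested. Among the 11 genes with at least 80 counts on a list of secondary granule and maturation genes, 5 had it (S100a9, Ngp, Camp, Chil3 and Ly6c2). It held for 0 of 24 such genes on the primary granule list, 0 of 17 on the Fc receptor list and 0 of 9 mast cell and basophil markers. Outside these lists Urod, on a list of haem and chaperone partners of Mpo, also had it. Camp, the cathelicidin gene, had 4, 76, 13 and 159 counts in AG636 samples 1 to 4 against 23 to 67 in Vehicle, and Ngp, the neutrophilic granule protein gene, had 6, 95, 14 and 170 against 23 to 77.

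Fcgr3 followed another order, with AG636 sample 3 highest and Vehicle sample 4 and AG636 sample 2 lowest of all libraries. It was shared by 2.44% of all genes tested, by 5 of 17 genes on a list of Fc receptor and ITAM signalling genes (Fcgr2b, Ms4a2, Tyrobp, Hcst and Lcp2) and by 3 of 9 mast cell and basophil markers with at least 80 counts. Fcgr2b, the inhibitory IgG receptor 74.6 kb from Fcgr3, was at 10.3, 14.0, 11.8 and 8.67 CPM in Vehicle and 12.3, 6.07, 19.9 and 12.7 CPM in AG636. The mast cell and basophil markers summed to 2102 CPM in Vehicle sample 4, 1505 in AG636 sample 2 and 3502 in AG636 sample 3, and to 2256 to 2689 in the other libraries. None of the 7 tested markers that list holds passed the test. The 7 megakaryocyte markers, among which Gp1bb was at 0 throughout, summed to 14.0 to 18.1 CPM in Vehicle and were highest in AG636 sample 3, at 62.9 CPM. The part of these cell types in the Fcgr3 values was not tested.

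**Figure D4:**
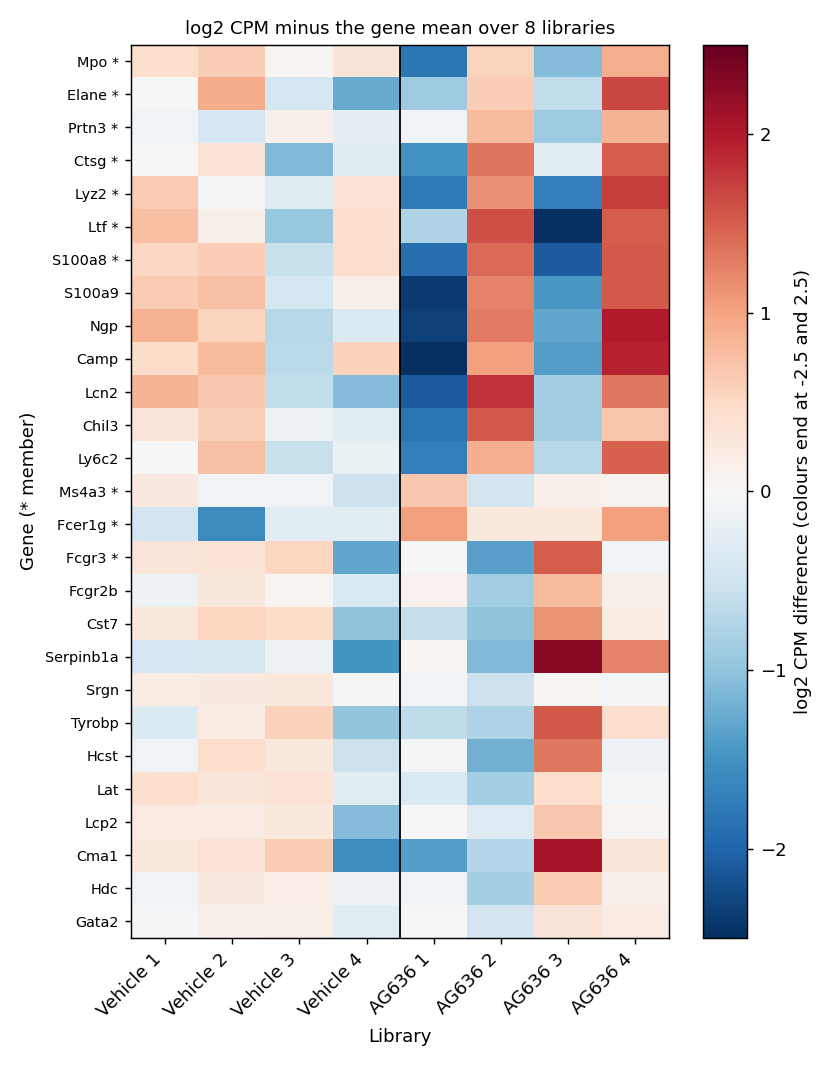
Log2 CPM of the members (starred) and of 17 companion genes, chosen after their values were seen, as the difference from the mean of each gene over the 8 libraries (red above, blue below; colours end at 2.5). From Mpo down to Ly6c2 AG636 samples 1 and 3 are mostly blue and AG636 samples 2 and 4 red, and from Fcgr3 down AG636 sample 3 is mostly red and Vehicle sample 4 and AG636 sample 2 blue.

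Genes with the most similar profiles were sought among tested genes with a mean log2 CPM of at least 5, by Pearson correlation of deviations from the group means over the 8 libraries, which share their depth and scaling. For the mean of Mpo and Prtn3, the granule enzymes that passed the filter, these were Ybx3 (0.98), Upf1 (0.97) and Tlnrd1 (0.97) of 5261 candidates. For Fcgr3 they were Arrb2 (0.99), Lcp1 (0.98) and Laptm5 (0.98). The values are the top of many candidates and describe these libraries.

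To place the members among the genes they work with, 178 companion genes were counted on lists of granule contents, Fc receptor signalling, the NADPH oxidase, haem and chaperone partners of Mpo, regulators and genomic neighbours. Of the 104 tested, 8 were called (7.69%, beside 14% of all genes), 2 higher and 6 lower, and the median log2 fold change of those tested was 0.048. Of all genes tested 5.47% were called higher and 8.49% lower, and the counts for single lists below stand beside these shares. No list was tested as a set.

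On the list of primary granule contents and protease handling, 2 of 24 tested genes fell and none rose, with a median log2 fold change of −0.04. Ctsz, which encodes the lysosomal carboxypeptidase cathepsin Z, fell from 79.8, 78.5, 88.8 and 77.9 CPM in Vehicle to 46.3, 40.2, 52.5 and 44.7 CPM in AG636 (log2 fold change −0.83, SE 0.10, adjusted p = 0.00178 by limma). All AG636 libraries lay close together and below the Vehicle range. Gusb, the lysosomal beta-glucuronidase gene, fell from 69.9 ± 6.64 to 40.2 ± 12.2 CPM (−0.85, SE 0.21, adjusted p = 0.0220), a call lost without Vehicle sample 1 (0.0651), 2 (0.0584) or 3 (0.0631). Srgn, which encodes serglycin, the proteoglycan that packs granule proteases, was the most abundant gene of the list, at 2103 ± 180 and 1698 ± 289 CPM (−0.32, SE 0.13, adjusted p = 0.121).

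Of 11 tested genes among the partners of Mpo, 3 fell and none rose, and all are endoplasmic reticulum chaperones. Calr and Canx encode calreticulin and calnexin, which bind newly made myeloperoxidase. Calr was at 564 to 579 CPM in Vehicle and at 274, 269, 432 and 532 CPM in AG636 (−0.67, SE 0.19, adjusted p = 0.0435), and Canx at 459 to 493 and 340 to 384 CPM (−0.38, SE 0.08, adjusted p = 0.00970). The Calr call was lost by edgeR (adjusted p = 0.0581) and without any 1 of the Vehicle samples (0.0993, 0.0960, 0.104 and 0.0879) or AG636 sample 1 (0.104) or 2 (0.0819). Pdia3 fell from 243 ± 19.1 to 176 ± 19.0 CPM (−0.47, SE 0.10, adjusted p = 0.0118). The enzymes of haem synthesis on the list, among them Cpox at 830 ± 44.8 and 926 ± 230 CPM, did not pass the test.

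No gene passed the test among 11 tested on the secondary granule and maturation list, 17 on the Fc receptor and ITAM list and 7 of the NADPH oxidase, with medians of 0.015, 0.033 and 0.059. Their most abundant genes were Cd24a, Ms4a2 and Rac2. Among 14 tested regulators of granule genes, 1 rose, Zeb2, a zinc finger repressor, from 56.0 ± 2.96 to 79.6 ± 12.8 CPM (0.50, SE 0.11, adjusted p = 0.0181), and the median was 0.38. The Zeb2 call was lost without Vehicle sample 1 (adjusted p = 0.0553) or 3 (0.0663). The most abundant regulator was Myb, at 447 ± 47.6 and 579 ± 140 CPM (adjusted p = 0.163). Cebpe, which drives secondary granule genes, had at most 3 counts, and Gfi1, a repressor needed for neutrophil maturation, at most 12.

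Of 25 tested genes that lie near a member, 1 rose and 1 fell. Tspoap1, 7.7 kb from Mpo, rose from 25.9, 24.1, 21.5 and 14.9 CPM in Vehicle to 48.7, 39.9, 47.7 and 47.1 CPM in AG636 (1.11, SE 0.16, adjusted p = 0.00286). Samples 1, 3 and 4 of AG636 lay close together for Tspoap1. Of these, samples 1 and 3 were the lowest and sample 4 the highest for Mpo. Polr2e, an RNA polymerase II subunit gene in the region of Elane and Prtn3, fell from 108 ± 3.74 to 76.9 ± 9.67 CPM (−0.50, SE 0.10, adjusted p = 0.00991). Erythroid markers summed to 6484 to 10390 CPM in Vehicle and 8887 to 10881 CPM in AG636, and of 12 tested Hbb-bt, a beta-globin gene, rose (0.90, SE 0.22, adjusted p = 0.0238), a call lost without Vehicle sample 2 (0.0745), 3 (0.0531) or 4 (0.0628).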

How the data were processed

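The deposited values are raw counts of reads per Ensembl gene in 8 libraries. To make them, the authors removed reads of low quality, trimmed primer and poly-A bases with cutadapt, mapped to mm10 (GRCm38) with HISAT2 and counted with featureCounts of Subread. The submitters' processing notes give cutadapt 1.9.1, HISAT2 2.0.4 and Subread 1.5.0-p3, and the methods give other versions of cutadapt and Subread. The strand setting and the treatment of shared reads are not given in the sources used here, so reads of overlapping genes cannot be told apart. Samples were grouped by title. Symbols came from a name table, which left 115 of 54838 genes without one.

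All genes were fitted together with voom of limma 3.58.1 in R 4.3.3, after filterByExpr of edgeR 4.0.16 (minimum count 10) and TMM scaling, with group as the only term, two-sided tests and Benjamini-Hochberg adjustment over 10911 genes at 0.05. SDs of log2 CPM used a prior count of 2. Exact permutation tests ran over 70 relabellings. Alternatives were edgeR's quasi-likelihood test, DESeq2 1.42.0, other scalings, filters, weights and thresholds, the replicate number as a block, and each library left out. Sequences are RefSeq's, and all 10 members had a promoter entry. The fit was tested on simulated data.

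The members and gene lists were chosen with earlier results of these data known. Genes named beside the members are, in each list, up to 4 called genes with the smallest p and the gene with the highest mean CPM, the marker genes and untested genes by their largest count, and for the likeness the 3 genes with the highest correlation. Genes given for their order across libraries, for their position beside a member, or in the picture of library patterns were chosen after their values were seen. Values of some listed genes are not reported here.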

Additional observations from a re-analysis of the deposited data

Results flagged for a closer look

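Among 20 combinations of a member and a group, the lowest or highest library was compared with the other 3 by Dixon's ratio, the gap to the nearest other library over the whole range, at its 95% critical value. Chance gives about 1 such case in 20 combinations, and 3 were found, all in Vehicle and all at the low end. Fcgr3 was at a log2 CPM of 3.79 in Vehicle sample 4, while the other Vehicle libraries were at 5.39 to 5.64 (ratio 0.866). Fcer1g was at −0.71 in Vehicle sample 2 and at 0.41 to 0.63 in the others (0.835), where the low value rests on 2 counts. S100a8 was at 4.17 in Vehicle sample 3 and at 5.15 to 5.34 in the others (0.838). Each case lies in a different library. The AG636 libraries fell into high and low values for S100a8 without a single distant one.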

How the results depend on the processing

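Several member differences changed sign with the processing while none of them was called. Lyz2, Ltf and S100a8 had log2 fold changes of 0.43, 0.58 and 0.29 by edgeR, 0.44, 0.61 and 0.30 by DESeq2, 0.35, 0.26 and 0.14 with the replicate block, 0.17, 0.75 and 0.10 without AG636 sample 3, and 0.26, 0.89 and 0.19 without both Vehicle sample 4 and AG636 sample 3. Without AG636 sample 1, Lyz2 was at 0.20 and S100a8 at 0.049. Fcgr3 was at −0.16 with sample quality weights, −0.36 without Vehicle sample 4, −0.43 without AG636 sample 3 and −0.84 without both. With single libraries left out, the values ran from −0.43 to 0.51 for Fcgr3, −1.08 to 0.20 for Lyz2, −1.30 to 0.75 for Ltf and −1.12 to 0.10 for S100a8. The mean CPM in Vehicle and AG636 was 4.56 and 6.10 for Lyz2, 2.10 and 3.16 for Ltf, and 32.5 and 39.6 for S100a8. The differences of their mean log2 CPM, AG636 minus Vehicle, were −0.32, −0.18 and −0.51. Which group had the higher mean therefore depended on the scale. The cause of the sign changes was not tested. Of the members, 0 were called with no filter, where all 10 were tested, and 0 at an adjusted p under 0.01. With at least 10 counts in every sample 0 were called, and Ms4a3, Fcgr3 and S100a8 alone were tested. With each library left out, 0 to 1 members were called. Over all genes the calls were 435 at an adjusted p under 0.01, 216 with a minimum log2 change of 1, and 688 (without Vehicle sample 3) to 1706 (without AG636 sample 3) with a library left out, against 1523. Companion gene calls, 8 as reported, were 14 by DESeq2, 14 with quality weights, 20 without both named libraries, 4 at an adjusted p under 0.01, 1 with that minimum change, and 5 (without Vehicle sample 1 or 3) to 13 (without AG636 sample 3) with a library left out. Library size alone turned the split of calls over all genes from 597 higher and 926 lower to 918 and 571, and moved the median of all genes to 0.064. Calr lost its call in 12 of 24 alternatives, with an adjusted p of 0.00756 to 0.104, and Tspoap1 in none. The median SD of the members in AG636 ranged from 1.11 to 1.45. Same-numbered samples correlated at −0.14, 0.014, 0.20 and 0.14 in their deviations from the group means. Samples with different numbers were not compared in this way, so these values cannot decide whether the numbers pair the samples. The replicate block gave 1 member, 1446 genes and 11 companion genes called, and Hbb-bt was not called (adjusted p = 0.0532). At 0 to 39 counts per library, Mpo, Elane, Prtn3, Ctsg, Fcer1g and Ltf were measured with wide counting error, and differences under that error were not detectable at this depth.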
